A study of Mus musculus with 6 samples.

Results

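ATAC-seq, in which a transposase tags open DNA, was used to compare chromatin accessibility at the MYC gene family in mouse fetal liver cells transformed by MLL-ENL, with and without the genes of C/EBPα and C/EBPβ. The family was taken as 9 genes, Myc, Pvt1, Mycn, Mycl, Max, Mxd1, Mxd4, Mxi1 and Mnt. Its regions were those listed in the deposited table on chromosome 15 between 61.9 and 64 Mb, which covers Myc, Pvt1 and the gene-poor stretch downstream, and those within 100 kb of the body of each of the other 7 genes. This gave 25 of the 10016 listed regions, on 5 chromosomes of the mm10 build. A region was listed if it had passed the authors' threshold for a difference between the groups, so that the 25 regions were chosen by position among regions that had all changed, and the threshold itself kept out small changes.

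MYC proteins are transcription factors of growth and proliferation that bind DNA only after pairing with MAX. c-MYC (Myc), N-MYC (Mycn) and L-MYC (Mycl) share this partner with the MXD proteins, here Mxd1, Mxi1 and Mxd4, and with MNT, which sit on the same E-box sequence and recruit corepressors. Myc is an immediate neighbour of Pvt1, a long noncoding RNA gene whose body holds enhancers. Far downstream of both lies an enhancer cluster that blood stem cells, progenitors and MLL-rearranged leukaemias are known to use for Myc expression.

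The cells were immortalised by retroviral MLL-ENL, a fusion of the MLL histone methyltransferase with the elongation factor ENL, and all groups carried it and grew in 10 ng/ml interleukin 3. WT cells had the genotype wild-type in the labels and, by the study's methods, came from E13.5 fetal livers of mice with floxed Cebpa and Cebpb, with no vector named. The dKO cells lacked Cebpa and Cebpb and carried a GFP vector, so that both groups differed in vector as well as in genotype, and dKO lines were surviving clones, of which the labels do not name the one used. The third group, dKO-LAP*, was the same knockout expressing rat C/EBPβ LAP*, the long isoform, and was not analysed here. Each group had 2 replicates, and libraries were made from 50000 cells.

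The table gave 1 mean per group and no value per library, so that WT and dKO means rest on 2 libraries each and carry no SD. Levels are log2 of the group's mean normalised reads over a region, and a change is the dKO level minus the WT level. Beside a change stands its 95% counting interval, obtained from the whole reads that the levels imply, which covers counting error and no difference between replicates. The lowest level in the table, -0.15, was taken as 1 read in each library, and whether it also stands for no reads was not tested. On this scale a level of 1.43 corresponded to 3 reads per library. None of the 25 regions had a level at or under 1.43 in either group. The lowest, 1.54 in WT, nevertheless rounded to 3 whole reads per library, so that this 1 region, downstream of Mxi1, was at the limit. At the deleted genes, the region at the Cebpa start had a level of 9.99 in WT and -0.15 in dKO, and those at the Cebpb start had levels of 8.60 and 7.38 in WT and 3.37 and -0.15 in dKO. Of the marker lists of myeloid progenitor, mast or basophil, erythroid, B, T, hepatocyte and stromal genes, listed regions within 1 kb of a start site were found for 1 of 10, 1 of 5, 0 of 4, 2 of 4, 0 of 4, 0 of 3 and 2 of 3 genes. Cd34 (2.81 in WT, 5.72 in dKO) and both Gata2 regions were higher in dKO, Col1a1 and Pdgfra were lower, and the 2 B cell genes went in opposite directions. A table of changed regions cannot show an open promoter that stayed the same, and the part of cell mixture in the results was not tested. In bulk libraries, a change in the share of cells with an open region and a change within each cell cannot be told apart.

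Of the 25 regions, 17 were higher and 8 lower in dKO, with 60.3% of all listed regions being higher. The share of 68.0% had a Wilson interval of 48.4 to 82.8%, which contains the share of all listed regions, and is a description since neighbouring regions are not independent. The median change was 1.57 for the family and 0.98 over all listed regions, and such a median moves with the share of gains. Among gains only it was 1.78 for the family and 1.58 over all listed regions. Among losses only it was -1.33 for the family and -1.85 over all listed regions. At least 2-fold higher were 16 of the 25, against 49.6% of all listed regions, and at least 2-fold lower were 6, against 35.9%. Regions were found for 6 of the 9 genes. Of the 7 genes with 100 kb flanks these were 4, against 62.9% of 21951 protein-coding genes by the same flanks. Myc and Pvt1 shared 15, Mxi1 had 7, and Mycn, Mycl and Mxd4 had 1 each.

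Sequences of 10 regions are printed because the description below turns on them. They are the 6 regions that gained accessibility at the far end of the Myc window, the regions with the largest rise near Mycn and Mxi1, and the 2 with the largest fall, near and beyond Pvt1. Each line gives the central 200 bases from the GRCm38.p6 assembly on the plus strand, 5′ to 3′, and capitals mark matches to 6 motifs. TTGCNNAA stands for the C/EBP family, the factors deleted in dKO cells. The hexamer of the E-box, the site of MYC-MAX and MXD-MAX dimers, was CACGTG. AP-1, the dimers of FOS and JUN proteins, was searched as TGANTCA. RUNX proteins, which act throughout blood development, were given by AACCACA. Factors of the GATA family, active in mast cell and erythroid lineages, were given by AGATAA. PU.1, the ETS factor of myeloid cells, was given by GAGGAAGT. Both strands were read and each motif was searched independently of the rest, so that matches may overlap.
Myc +1.51 Mb, a gain with 1 C/EBP match (chr15:63498599-63498798): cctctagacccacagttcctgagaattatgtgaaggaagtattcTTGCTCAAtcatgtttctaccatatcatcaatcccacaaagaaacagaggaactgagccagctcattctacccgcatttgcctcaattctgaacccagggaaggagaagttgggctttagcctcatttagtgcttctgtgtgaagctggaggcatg
Myc +1.62 Mb, a gain with 1 E-box match (chr15:63604304-63604503): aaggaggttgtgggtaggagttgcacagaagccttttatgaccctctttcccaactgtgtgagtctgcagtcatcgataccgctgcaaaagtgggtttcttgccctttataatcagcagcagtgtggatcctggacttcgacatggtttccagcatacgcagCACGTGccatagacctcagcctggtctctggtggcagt
Myc +1.63 Mb, a gain with no match (chr15:63611231-63611430): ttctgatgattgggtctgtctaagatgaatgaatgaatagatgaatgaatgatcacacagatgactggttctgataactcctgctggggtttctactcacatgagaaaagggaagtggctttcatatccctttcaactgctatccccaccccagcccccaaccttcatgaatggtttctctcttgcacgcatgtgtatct
Myc +1.64 Mb, the largest gain of the Myc window, with 1 PU.1 match (chr15:63624900-63625099): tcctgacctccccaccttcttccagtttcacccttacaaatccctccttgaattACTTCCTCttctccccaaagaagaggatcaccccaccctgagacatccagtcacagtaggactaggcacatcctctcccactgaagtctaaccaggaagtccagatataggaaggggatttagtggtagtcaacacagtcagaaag
Myc +1.68 Mb, a gain with 1 AP-1 and 1 PU.1 match (chr15:63665601-63665800): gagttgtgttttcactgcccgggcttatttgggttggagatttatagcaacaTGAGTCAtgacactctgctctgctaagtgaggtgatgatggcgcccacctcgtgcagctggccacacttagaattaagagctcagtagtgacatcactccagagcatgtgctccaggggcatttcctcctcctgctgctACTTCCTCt
Myc +1.69 Mb, a gain with 1 AP-1 match (chr15:63679066-63679265): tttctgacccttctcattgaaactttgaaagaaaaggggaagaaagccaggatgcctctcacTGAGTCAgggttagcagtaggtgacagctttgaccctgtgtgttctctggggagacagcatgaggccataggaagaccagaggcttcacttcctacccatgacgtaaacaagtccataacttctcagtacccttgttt
Myc +152 kb in Pvt1, a loss with 1 C/EBP match (chr15:62137172-62137371): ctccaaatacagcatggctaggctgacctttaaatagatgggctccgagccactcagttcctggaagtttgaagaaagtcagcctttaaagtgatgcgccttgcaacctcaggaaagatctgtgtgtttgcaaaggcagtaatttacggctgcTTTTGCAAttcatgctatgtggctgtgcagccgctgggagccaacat
Myc +709 kb, the largest loss, with no match (chr15:62694419-62694618): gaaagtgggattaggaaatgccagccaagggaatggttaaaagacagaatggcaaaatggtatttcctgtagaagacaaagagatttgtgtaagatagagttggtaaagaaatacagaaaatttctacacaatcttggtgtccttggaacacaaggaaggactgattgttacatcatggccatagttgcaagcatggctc
Mycn promoter, a gain with no match (chr12:12942441-12942640): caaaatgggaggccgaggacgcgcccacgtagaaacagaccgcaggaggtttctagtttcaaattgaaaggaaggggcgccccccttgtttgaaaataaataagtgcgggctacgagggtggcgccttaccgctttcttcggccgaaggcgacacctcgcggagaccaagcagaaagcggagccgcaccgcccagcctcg
Mxi1 upstream, the largest gain, with 1 E-box match (chr19:53273447-53273646): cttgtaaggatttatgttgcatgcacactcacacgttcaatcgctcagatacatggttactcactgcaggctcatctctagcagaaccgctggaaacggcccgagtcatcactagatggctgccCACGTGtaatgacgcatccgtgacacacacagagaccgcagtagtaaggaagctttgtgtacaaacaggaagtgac

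The Myc gene itself (chr15:61985391-61990374, plus strand) had no listed region within 1 kb of any of its start sites. The nearest one began 573 bp past the end of the gene (chr15:61990947-61991372, intergenic), and its level was 4.62 in WT and 6.19 in dKO, a rise of 1.57 (interval 1.11 to 2.03). This region and those at +121 and +577 kb fell outside the rule for named regions and were chosen after their values were seen. The largest distance between listed neighbours in the window, 803.84 kb, separated the regions around Pvt1 from a distal set that began 1.5 Mb or more downstream of the Myc start. The window held 7.14 listed regions per Mb, against 5.48 on chromosome 15 and 3.80 genome-wide.

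Within the body of Pvt1 (chr15:62037986-62378096, plus strand, a long noncoding RNA gene of 340.11 kb), all 4 listed regions were intronic, and 3 of them were lower in dKO, beside 39.7% lower over all listed regions. The strongest fall lay 152 kb downstream of the Myc start (chr15:62137082-62137460), where the level was 5.35 in WT and 2.43 in dKO, a change of -2.92 (interval -3.93 to -2.05). These levels corresponded to 45.5 and 6 reads per library, and its centre held the C/EBP match shown above. At +244 kb (chr15:62229575-62229937) the level was 5.10 in WT and 2.85 in dKO, a change of -2.25 (interval -3.13 to -1.46). The region at +121 kb (chr15:62106534-62107006), 181 bp from the start of the annotated gene Gm27718, had the smallest fall of the 3, from 5.82 to 4.66 (change -1.16, interval -1.64 to -0.69). Its centre held a RUNX match.

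The one gain in the Pvt1 body was 22.1 kb beyond the +244 kb loss. At +267 kb (chr15:62252037-62252500) the level was 4.95 in WT and 6.76 in dKO, a rise of 1.81 (interval 1.41 to 2.21). The 2 neighbouring Pvt1 regions, similar in WT, thus moved in opposite directions in dKO, and their counting intervals lay on opposite sides of 0. No listed region was within 1 kb of a Pvt1 start site, the nearest being the +244 kb region at 6972 bp.

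Between the end of Pvt1 and the distal set, 2 regions rose and 1 fell. The intergenic region at +407 kb (chr15:62392358-62392803) had an AP-1 match and rose by 2.19 (interval 1.62 to 2.78), from 3.84 in WT to 6.03 in dKO. The intergenic region at +577 kb (chr15:62562458-62562796) had a RUNX match and rose by 1.75 (interval 1.25 to 2.30), from 4.22 to 5.97. The largest loss of the whole family was at +709 kb (chr15:62694339-62694697), in an intron of the noncoding gene Gm41333. Its level was 5.51 in WT and 2.44 in dKO, 50.5 against 6 reads per library, for a change of -3.07 (interval -4.07 to -2.21). Only 5.84% of all listed regions had a lower value of the change. No match to the 6 motifs was in its centre.

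**Figure D1:**
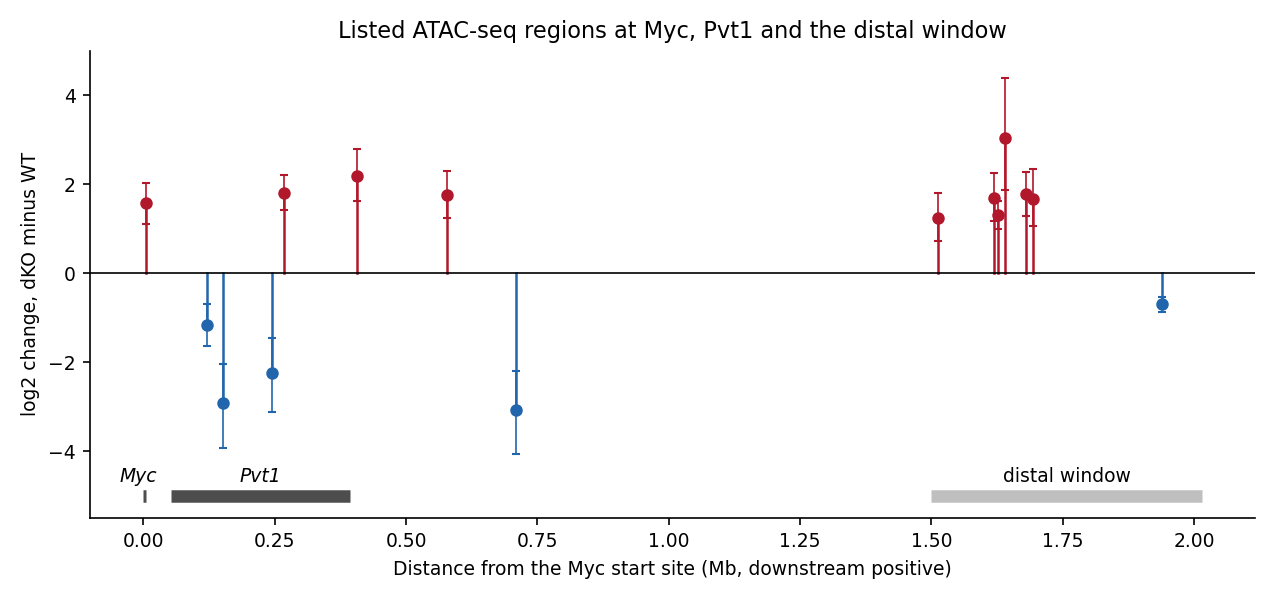
Change in accessibility of the 15 listed regions at Myc, Pvt1 and downstream (y axis, log2, dKO minus WT) against distance from the Myc start site (x axis, Mb). Red points are higher and blue points lower in dKO, thin bars are 95% counting intervals without replicate error, and dark and light bars at the bottom mark the gene bodies and the distal window. Gains and losses are interspersed up to 709 kb, and 6 of 7 distal regions are gains.

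The distal window contained 7 listed regions, of which 6 were higher in dKO and 1 was lower, set against 60.3% higher over all listed regions. The first 8 regions of the chromosome 15 window were 4 higher and 4 lower. Their median change of 0.21 therefore lay between gains and losses, against 1.66 for the 7 distal regions. Among gains only, the median was similar, at 1.78 in the first 8 regions, 1.68 in the distal window and 1.58 over all listed regions. All 6 distal gains were in introns of the noncoding gene Gm41335 and spanned 180.77 kb, and 5 of them spanned 75.1 kb. The nearest coding start site to each was that of Gsdmc, a member of the gasdermin family of pore-forming proteins, 129 to 310 kb away. The deposited table does not name enhancers, so whether these regions are parts of the known blood enhancer cluster was not analysed here.

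The largest distal gain was at +1.64 Mb (chr15:63624892-63625106), with a level of 1.63 in WT and 4.66 in dKO, 3.5 against 28 reads per library. Its change of 3.03 (interval 1.86 to 4.38) was above that of 94.3% of listed regions, and its centre held a PU.1 match. In WT it was close to the level of 3 reads per library, so that most of the width of its interval came from the WT count. The other 5 distal gains were well above that level in WT, at 14 to 58.5 reads per library, and rose by 1.24 to 1.78.

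At +1.68 Mb (chr15:63665516-63665884), with AP-1 and PU.1 matches, the level was 4.39 in WT and 6.17 in dKO, a rise of 1.78 (interval 1.29 to 2.27). At +1.62 Mb (chr15:63604248-63604558), with an E-box match, it was 4.17 in WT and 5.87 in dKO, a rise of 1.70 (interval 1.18 to 2.25). At +1.69 Mb (chr15:63679030-63679300), with an AP-1 match, it was 3.68 in WT and 5.34 in dKO, a rise of 1.66 (interval 1.06 to 2.35). The counting intervals of these 3 gains overlapped, and their order by size was within counting error.

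The region at +1.63 Mb (chr15:63611131-63611530) was the most accessible of the 6 in both groups, at 5.72 in WT and 7.02 in dKO, and rose by 1.30 (interval 0.98 to 1.62). It was also the widest, at 400 bp. The region at +1.51 Mb (chr15:63498533-63498864), 105 kb before the others, rose least, by 1.24 (interval 0.73 to 1.80), from 4.32 in WT to 5.56 in dKO. It was the only gain of the 17 with a C/EBP match in its central 200 bases, and the gain at +407 kb held a match outside its centre.

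The distal exception lay at +1.94 Mb (chr15:63924225-63925203), over an exon of the pseudogene Gsdmcl-ps and 11.9 kb from the start of Gsdmc4. This region of 979 bp was open in both groups, at 8.55 in WT and 7.85 in dKO, and fell by 0.70 (interval -0.86 to -0.54 for the change). It was implied to hold 416 reads per library in WT and 256 in dKO, more in either group than any of the 6 gains. The centre held C/EBP and RUNX matches. Just outside the window, the next listed region to the right (chr15:64032793-64033251, in a Fam49b intron) went from 6.92 to 6.12, and the next to the left, 1045.4 kb before it, from 3.02 to 5.23.

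Chromosome 15 as a whole was tilted to gains, with 71.4% of its listed regions outside the family window higher in dKO. The 10 of 15 at Myc and Pvt1 were close to that share, and the 6 of 7 in the distal window stood beside the same background.

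**Figure D2:**
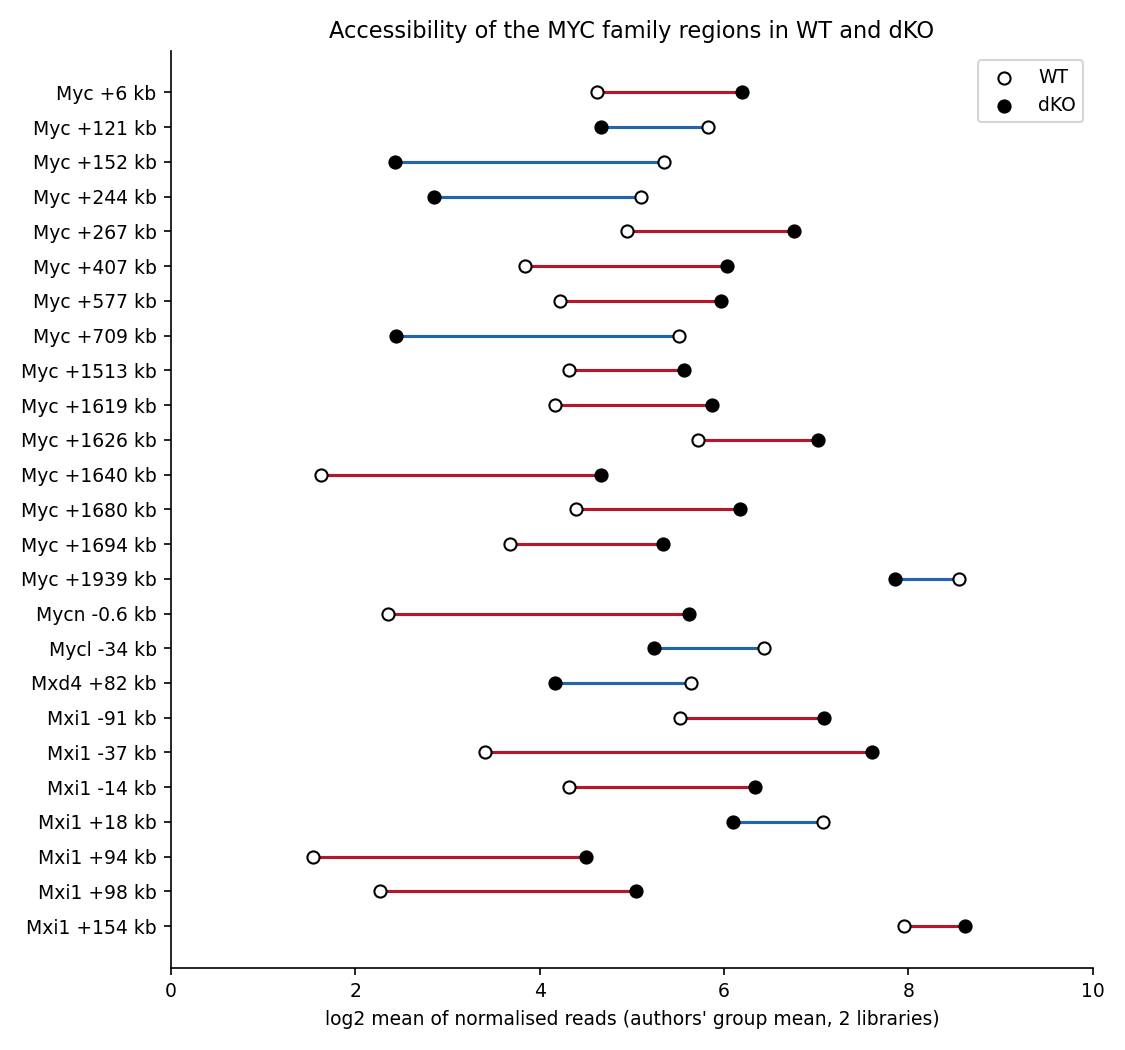
Accessibility of each of the 25 regions in WT (open circles) and dKO (filled circles), as the authors' group means of 2 libraries on a log2 scale (x axis, normalised reads). Rows are named by gene and distance from its start site, lines are red where dKO is higher and blue where it is lower, and no replicate error can be drawn. Levels ran from 1.54 to 8.55 in WT and from 2.43 to 8.61 in dKO.

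The paralogues of Myc each had 1 region, with opposite changes. Mycn encodes N-MYC, known from embryonic tissues and early haematopoietic progenitors. Its region (chr12:12942337-12942743) lay 423 bp upstream of a Mycn start site, the gene (chr12:12936093-12941914) being on the minus strand. The level was 2.35 in WT and 5.62 in dKO, 5.5 against 54.5 reads per library, and the change of 3.27 (interval 2.41 to 4.35) exceeded that of 95.8% of listed regions. This was one of 2 regions of the family within 1 kb of a start site of its own gene. The central 200 bases shown above were 59.0% G and C and held none of the 6 motifs, and the next listed regions beyond the flanks were 355 and 468 kb from the gene.

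Mycl (chr4:122995652-123002485, plus strand), which encodes L-MYC, had its single region 34.5 kb upstream (chr4:122960956-122961394). This region covered a start site and coding exon of Mfsd2a, a lipid transporter gene, and an exon of 4933421A08Rik, and was nearer to them than to Mycl. It fell by 1.19 on the log2 scale (interval of the change -1.57 to -0.81), from 6.43 in WT to 5.24 in dKO. No other region was listed within 100 kb of Mycl, so that Mycl itself had no listed promoter region.

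Among the MAX partners that oppose MYC, Mxi1 had 7 regions, of which 6 were higher and 1 was lower. Over all listed regions 60.3% were higher, and on the rest of chromosome 19 72.2%. The median change was 2.02 against 0.98 over all listed regions, and among gains only it was 2.4 against 1.58. Mxi1 encodes MXI1 (MXD2), a MAX partner that represses transcription at E-boxes. The largest change of the family was at 37.0 kb upstream of its start (chr19:53273297-53273796, intergenic), with a level of 3.41 in WT and 7.61 in dKO. The nearest start site was that of the annotated gene AC138174.3, 6666 bp away, and the nearest coding start was that of Mxi1. The implied reads per library were 12 and 217, and the change of 4.20 (interval 3.58 to 4.83), an 18.4-fold rise, was exceeded by 1.27% of all listed regions. In dKO this region was more accessible than 91.0% of listed regions, and its centre held the E-box CACGTG printed above.

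Further regions on both sides of Mxi1 also rose. At 94.3 kb downstream of the start (chr19:53404629-53404909, with a GATA match) the level was 1.54 in WT and 4.50 in dKO, a rise of 2.96 (interval 1.84 to 4.57). At 98.1 kb (chr19:53408439-53408734, with 2 AP-1 matches) it was 2.27 in WT and 5.04 in dKO, a rise of 2.77 (interval 1.81 to 3.79). These 2 regions were 3.53 kb apart, intergenic, and nearer to the start of Smndc1, a splicing factor gene, than to that of Mxi1. They were nearly closed in WT, with 3 and 5.5 reads per library, which gives them the widest intervals of the locus.

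The remaining gains were described after their values were seen. At 13.9 kb upstream (chr19:53296369-53296782, with a RUNX match) the level went from 4.32 to 6.34, a rise of 2.02 (interval 1.55 to 2.54). At 91.1 kb upstream (chr19:53219198-53219707, in an intron of the cytoskeletal adducin gene Add3) it went from 5.52 to 7.08, a rise of 1.56 (interval 1.23 to 1.90). The outermost region, 154 kb downstream (chr19:53464382-53465243, over an exon and start of the noncoding gene Mirt1 and with a PU.1 match), was open in both groups, at 7.95 in WT and 8.61 in dKO. Its rise of 0.66 (interval 0.50 to 0.82) was the smallest of the family, and it becomes a fall of 0.32 (change -0.32) when the median change of all listed regions is subtracted.

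The only loss at Mxi1 was inside the gene (chr19:53310518-53375810, plus strand), in an intron 988 bp upstream of an internal start site (chr19:53328119-53328425). The level there was 7.07 in WT and 6.10 in dKO, a change of -0.97 (interval -1.26 to -0.68). The most upstream start site of Mxi1 was not near a listed region, the closest being the gain 13.7 kb before it.

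**Figure D3:**
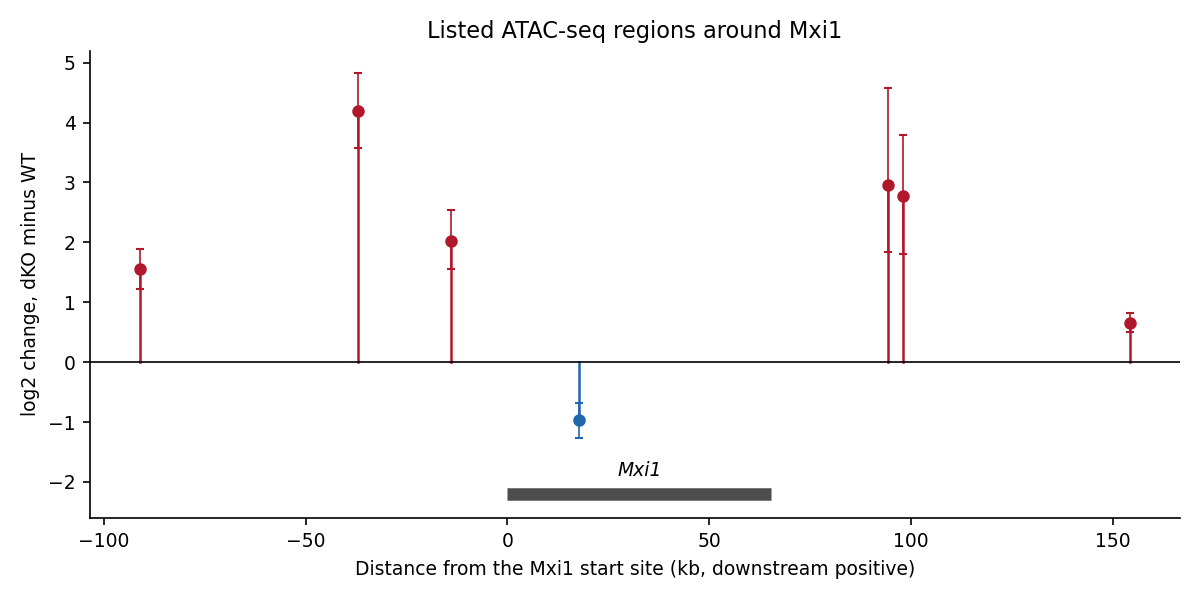
Change in accessibility of the 7 listed regions around Mxi1 (y axis, log2, dKO minus WT) against distance from the Mxi1 start site (x axis, kb). Red points are higher and blue points lower in dKO, thin bars are 95% counting intervals without replicate error, and the dark bar marks the gene body. The gain of 4.20 lies 37.0 kb upstream, and the one loss, a change of -0.97, lies within the gene.

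Mxd4 (chr5:34173883-34187720, minus strand), which encodes the MAX partner MXD4 of differentiating cells, had 1 region 81.9 kb downstream of its start (chr5:34105670-34106066). The region covered an exon and start site of Poln, a DNA polymerase gene, and had a C/EBP match. It fell by 1.47 on the log2 scale (interval of the change -2.03 to -0.94), from 5.64 in WT to 4.17 in dKO. As for Mycl, the listed region was therefore at the start of a neighbouring gene.

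Max, Mxd1 and Mnt had no listed region within 100 kb. Max (chr12:76937269-76962201) is the shared partner of the network, and the nearest listed region was 153 kb from it, with levels of 1.26 in WT, under that of 3 reads per library, and 4.24 in dKO. Mxd1 (chr6:86647042-86669161), a MYC antagonist induced in myeloid differentiation, had its nearest listed region 109.8 kb away, in an Anxa4 intron, with levels of 4.04 and 6.21. Mnt (chr11:74830920-74845725), the widely expressed antagonist, had its nearest listed region 183 kb away, with levels of 4.16 and 5.85. The table does not tell whether chromatin at these 3 genes was open and unchanged or closed in both groups.

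**Figure D4:**
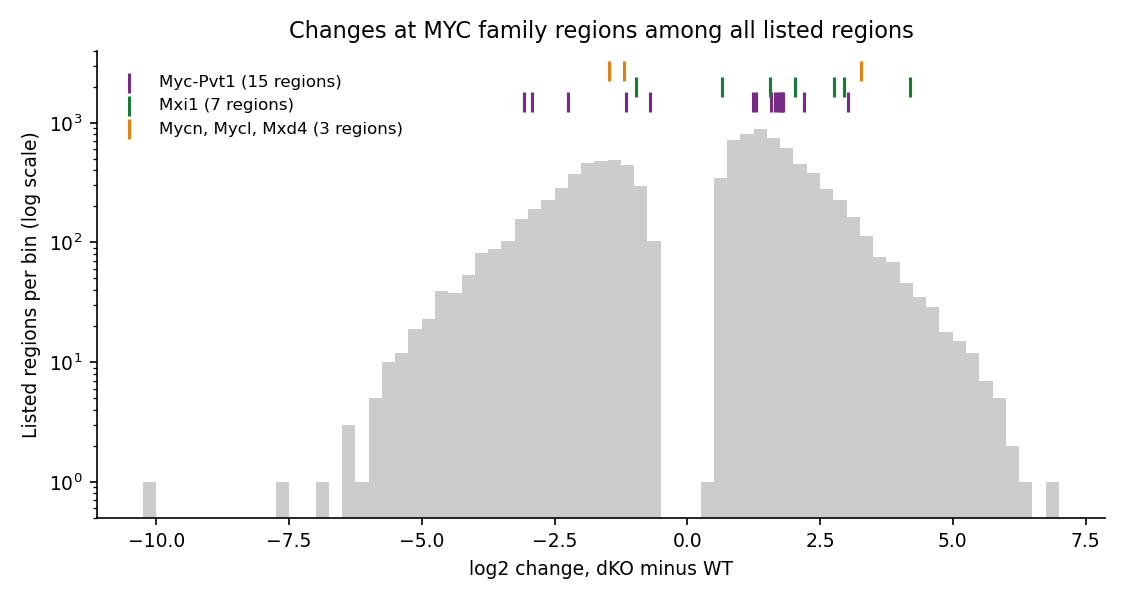
Changes of the MYC family regions (coloured ticks at the top) above the distribution of the change over all 10016 listed regions (grey bars, number of regions per bin on a log scale, x axis log2, dKO minus WT). The gap around 0 is the authors' threshold, and most ticks of the family lie within the bulk of the distribution, those of Mycn at 3.27 and Mxi1 at 4.20 being farthest to the right.

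The letters of the 25 regions were then set beside those of all listed regions, as a description. A C/EBP match was in the central 200 bases of 4 of the 25, against 19.4% of all listed regions. These were 3 of the 8 losses and 1 of the 17 gains, and over all listed regions the match was in 29.4% of losses and 12.7% of gains. With the looser letters TTNCNNAA the match was in 12 of the 25 regions, against 46.9% of all listed regions, and in 5 of the 8 losses and 7 of the 17 gains, against 56.2% and 40.8%. An AP-1 match was in 4 of the 17 gains and none of the 8 losses, against 30.4% of all gains and 6.10% of all losses. A PU.1 match was in 3 gains and no loss, against 13.1% and 3.34% of all gains and losses.

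An E-box was in 2 of the 25, both gains, against 5.64% of all listed regions. Over all listed regions it was less frequent in gains (4.57%) than in losses (7.26%). They were the Mxi1 upstream region and the Myc region at +1.62 Mb. RUNX matches were in 4 regions (2 gains and 2 losses), against 11.9% of all listed regions, and a GATA match in 1, against 7.52%. With so few regions each count differs from its background by a few regions at most, and a match does not say that a factor was bound.

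Other genes of the MYC network were counted in the same table, by listed regions in the gene body and 10 kb on each side. Of 46 genes in 4 lists, 14 had such a region (30.4%), against 24.8% of 21951 protein-coding genes, and the 20 regions were 11 higher and 9 lower, beside 60.3% higher over all listed regions. Among 6 further network proteins (Mxd3, Mga, Mlx, Mlxip, Mlxipl, Zbtb17) only Mlxipl, the glucose-responsive factor ChREBP that pairs with MLX, had regions. Both Mlxipl regions were intronic and close together, 800 and 1239 bp from a Mlxipl start site. They were lower in dKO, from 6.67 to 3.38 (chr5:135107718-135108109) and from 7.26 to 5.26 (chr5:135108157-135108559), changes of -3.29 and -2.00. Of 8 cofactor genes (Trrap, Kat5, Ep400, Ruvbl1, Ruvbl2, Wdr5, Hcfc1, Kat2a) 1 had a region, beside Ep400 in a coding exon of its neighbour Ddx51, and it rose by 1.13.

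Of 8 genes that control the stability of MYC protein (Fbxw7, Usp28, Usp36, Huwe1, Skp2, Aurka, Ppp2r5a, Gsk3b) 2 had regions (25.0%), against 24.8% of protein-coding genes. The regions were 2 higher and 3 lower, beside 60.3% higher over all listed regions. Usp36, a nucleolar deubiquitinase of MYC, had 3 of these, 1 higher (2.70 in WT, 5.55 in dKO) and 2 lower (5.63 to 2.44 and 4.45 to 0.84, the last at under 3 reads per library in dKO). Both regions beside Gsk3b, 1 higher and 1 lower, were in its neighbour Nr1i2. Of 24 genes known as MYC targets, 10 had a region (41.7%), against 24.8% of protein-coding genes by the same flanks. Their 12 regions were 8 higher and 4 lower, beside 60.3% higher over all listed regions. Over gains and losses together, their median change was 0.63, against 0.98 over all listed regions.

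The largest rise of the target list was in a coding exon of Cad, the enzyme of the first steps of pyrimidine synthesis. This region, 452 bp from a Cad start site, went from 6.70 in WT to 8.45 in dKO (change 1.75). The region in Nme1, a nucleoside diphosphate kinase gene, rose by 1.58. An intergenic region near Tfrc, the transferrin receptor gene, but with the start of Tnk2 as its nearest, rose by 1.59, and one in an exon of Glt8d1 beside Gnl3, encoding nucleostemin, rose by 1.54. Tert, the telomerase catalytic subunit, had 2 lower regions, one over a Tert start site with a change of -1.57 and one with a change of -1.34. The region beside Odc1, the ornithine decarboxylase of polyamine synthesis, had a change of -1.04. E2f2, a cell cycle factor gene, had a higher region in an intron (0.63), and a lower one beside it was at the start of Asap3 (-0.90). The regions beside Cdk4, Shmt2 and Mybbp1a rose by 0.62 to 0.64 and lay at the start of Tspan31, between genes with the start of Ndufa4l2 as the nearest, and in a coding exon of Spns2.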

How the data were processed

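ATAC-seq libraries were sequenced to an average of 25 M reads per the labels, depth per library not being given in the sources used here. The authors preprocessed reads with PiGx, aligned them to mm10 with Bowtie2, called peaks with MACS2 and compared groups with DiffBind (version 2.14.0). Their normalisation and their handling of PCR duplicates and of the Tn5 offset were not given in the sources used here. Kept duplicates would inflate reads and narrow counting intervals, and a missing offset would move edges by a few bases. The authors deposited log2 mean normalised reads for WT, for dKO and for both, with their log2 fold, p-value and FDR, and levels scale with region width. Their fold and p-value columns were not used, beyond a check that the largest deposited FDR was 0.05, so that only changed regions are listed. The 2 deposited files were identical, giving 1 table with WT and dKO and without dKO-LAP*. With group means only, no test of replicates, SD or enrichment was run.

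The change was computed as dKO minus WT. Reads were recovered from the steps of the lowest levels, and intervals are exact binomial (Clopper-Pearson, 95%), covering counting error only. Genes came from GENCODE M21 and sequences from GRCm38.p6, whose coordinates equal mm10. Values are given for regions in the distal window, within 1 kb of a start site of the 9 genes, and for the 3 largest changes in each direction at each gene. The 9 genes, the lists and the motifs were chosen with earlier results of these data known. Motif search and intervals were tested on simulated data. Python 3.11.15, pandas 2.3.3 and SciPy 1.17.1 were used. Alternatives were flanks of 50 or 10 kb, a 2-fold minimum, filters on low levels, centring on the median change, the start of the distal window, and the motif. A gene of the network lists is not reported here and was left out of their counts.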

Additional observations from a re-analysis of the deposited data

How the results depend on the processing

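Gains outnumbered losses in the family under the 6 alternative settings, with 64.0 to 73.7% of regions higher in dKO, but the share over all listed regions moved as well. It was 58.0% with a 2-fold minimum (72.7% in the family), 62.5% without the lowest mean levels (73.7%) and, by construction, 50% after centring (64.0%). The filter on levels at 3 reads per library removed no region of the family. With flanks of 10 kb in place of 100 kb, 11 regions were higher in place of 17, because fewer regions were inside. Leaving out the 1 region at 3 whole reads per library, an alternative chosen after seeing the data, gave 16 higher and 8 lower. Leaving out the lowest 25% of mean levels gave 5 lower regions in place of 8. At a minimum of 2-fold the distal window had 0 lower regions in place of 1. With the whole region searched in place of its centre, 5 regions held a C/EBP match in place of 4. With the looser letters TTNCNNAA, 12 regions held a C/EBP match in place of 4, and the share of all listed regions rose likewise, to 46.9% from 19.4%. Subtracting the median change over all listed regions, 0.98, kept the sign of 24 of the 25 regions and turned the outermost Mxi1 region to -0.32. It shrank the gains, for example from 1.57 to 0.59 beside Myc, from 1.24 to 0.26 at +1.51 Mb and from 1.30 to 0.32 at +1.63 Mb, and enlarged the losses. That median is over changed regions only, and the authors' normalisation was not given in the sources used here. No paired analysis was possible because only group means, and no values of single libraries, were given, and for the same reason no replicate could be left out. Replicate spread, clonal differences between dKO lines and the effect of the vector cannot be told apart from the genotype here, and regions near 3 reads per library are limited by depth.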
